A study of Mus musculus with 12 samples.

Results

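The genes described here are 8 mouse genes of the Ms4a and Ly6 families that encode surface proteins of T cells and other leukocytes: Ms4a4b, Ms4a4c, Ms4a6b, Ly6a, Ly6c1, Ly6c2, Ly6d and Ly6e. They were taken by their Entrez identifiers from a table of 27179 genes, and each of the 8 had a row in it. Gene counts came from RNA-seq of 1 primary mouse leukemia, ALL101, a T-cell acute lymphoblastic leukemia (T-ALL) of the genotype Vav-tTA;TRE-GFP-shIkaros. In this genotype the Vav promoter, active in blood cells, drives a tetracycline-off transactivator, which in turn switches on GFP together with a hairpin that silences Ikzf1, the gene of the lymphoid transcription factor Ikaros. Leukemia cells were sorted from the spleens of leukemic recipient mice that were untreated (3 mice, GFPhigh cells) or had received doxycycline (Dox) for 3 days (3 mice, GFPmid cells). Per the labels, Dox switches the hairpin off and endogenous Ikaros returns. Both groups carry the hairpin transgene, and neither age nor strain of the mice is stated in the labels. All mice carry the same leukemia, and treatment and sort gate cannot be told apart, nor can restored Ikaros and Dox itself, since none of these samples is a leukemia without the hairpin given Dox. The library name of untreated mouse 3 has INJ where the other 5 mice have sort wording.

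Ms4a proteins cross the membrane several times, resemble CD20, and several of them sit at or near signalling receptors of leukocytes. Ly6 proteins are small, cysteine-rich proteins fixed to the outer membrane by a glycosylphosphatidylinositol (GPI) anchor. Ly6a (Sca-1) and the Ly6C proteins are used to mark activated, memory and other T-cell states and are also carried by progenitors and myeloid cells, and several Ly6 genes are known to respond to interferon.

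Each mouse gave 29904744 to 44949303 counts over its 2 sequencing runs. Levels are given as CPM, counts scaled to a common library size, where 1 CPM stood for 29.8 to 45.0 counts. Ikzf1 was at 153, 150 and 159 CPM in untreated mice 1 to 3 and at 1438, 1523 and 1495 CPM in Dox mice 1 to 3. The 10 T-cell markers summed to 5413 to 5484 CPM in untreated and 6245 to 6532 CPM in Dox mice, so the labelled cell type was borne out by its markers. By the edgeR test described below, 6 of the 10 were higher with Dox and 1 (Cd3g) was lower. Over all genes tested these shares were 24.8% and 25.2%. B and plasma cell markers summed to 75.8 to 86.1 and 57.9 to 70.5 CPM, of which Sdc1 made up most, and 9 of the 10 stayed below 1 CPM in every mouse, with Pax5 at 0. In bulk samples, fewer cells of a type and less RNA per cell cannot be told apart.

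Ly6c1 and Ly6c2 are near-identical copies, and the counts of these genes have to be read with that in mind. Their coding sequences, from GENCODE M21 on the mm10 build, each have 396 bases, of which 387 (97.7%) are the same. Their first 280 bases are shown because the copies differed in the counts below. Capitals mark 7 of the 9 positions that differ.
Ly6c1: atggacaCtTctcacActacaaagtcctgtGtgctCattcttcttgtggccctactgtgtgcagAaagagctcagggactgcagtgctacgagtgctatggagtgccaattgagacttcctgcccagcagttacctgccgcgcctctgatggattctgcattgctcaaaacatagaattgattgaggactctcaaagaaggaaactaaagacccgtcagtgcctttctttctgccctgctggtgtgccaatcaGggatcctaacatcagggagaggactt
Ly6c2: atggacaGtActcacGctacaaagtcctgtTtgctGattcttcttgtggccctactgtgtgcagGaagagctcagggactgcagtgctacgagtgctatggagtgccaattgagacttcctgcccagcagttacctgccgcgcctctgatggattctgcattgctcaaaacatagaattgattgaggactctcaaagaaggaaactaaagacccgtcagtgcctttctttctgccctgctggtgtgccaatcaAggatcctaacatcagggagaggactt
The longest stretch without a difference is 188 bases, so a short read from it fits both genes. Over all 50-base windows of the Ly6c1 transcripts, 32.77% also occurred in transcripts of another gene, 379 windows in Ly6c2 and 195 in Ly6a. For Ly6a that share was 18.97%, for Ly6c2 14.45%, for Ms4a4c 8.19%, for Ms4a6b 3.57% and for Ms4a4b 2.40%. The windows pool all transcripts of a gene, which can exceed the deposited gene length. Ms4a4b had 8821 windows for a deposited length of 1259 bases, Ly6c2 2733 for 801 and Ms4a6b 4561 for 1687. The shares of Ms4a4b, Ly6c2 and Ms4a6b may thus understate the overlap of the counted sequence. Ly6d and Ly6e shared no window with another gene. Ms4a4b and Ms4a4c have 91.8% identical coding sequences, with a longest identical stretch of 127 bases. How reads with several matches were counted is not stated in any source used here, so the division of counts within these pairs is uncertain.

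The members lie in 2 clusters. The Ly6 members are on chromosome 15 (mm10), in the order Ly6d (chr15:74762056-74763567), Ly6e (chr15:74955025-74959904), Ly6a (chr15:74994877-74998031), Ly6c1 (chr15:75044018-75048920) and Ly6c2 (chr15:75108161-75112066). Ly6e lies on the plus strand and the other Ly6 members on the minus strand. The Ms4a members are on the plus strand of chromosome 19, in the order Ms4a4c (chr19:11404717-11427246), Ms4a4b (chr19:11443558-11463549) and Ms4a6b (chr19:11518559-11530403). All are protein-coding genes.

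Of the 8 members, 7 passed the filter on low counts, and Ms4a4c did not. With edgeR's quasi-likelihood test and Benjamini-Hochberg adjustment over the 13134 genes tested, Ly6c1 and Ly6a were lower after Dox, Ms4a4b was higher, and Ly6c2, Ly6d, Ly6e and Ms4a6b did not pass. Over all genes tested 50% passed, 24.8% in the higher and 25.2% in the lower direction, so 3 of 7 is close to the background. The groups of mice did not overlap for the same 3 members, against 61.2% of all genes tested. The members' median log2 fold change was -0.28, beside -0.0037 over all genes tested.

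**Figure D1:**
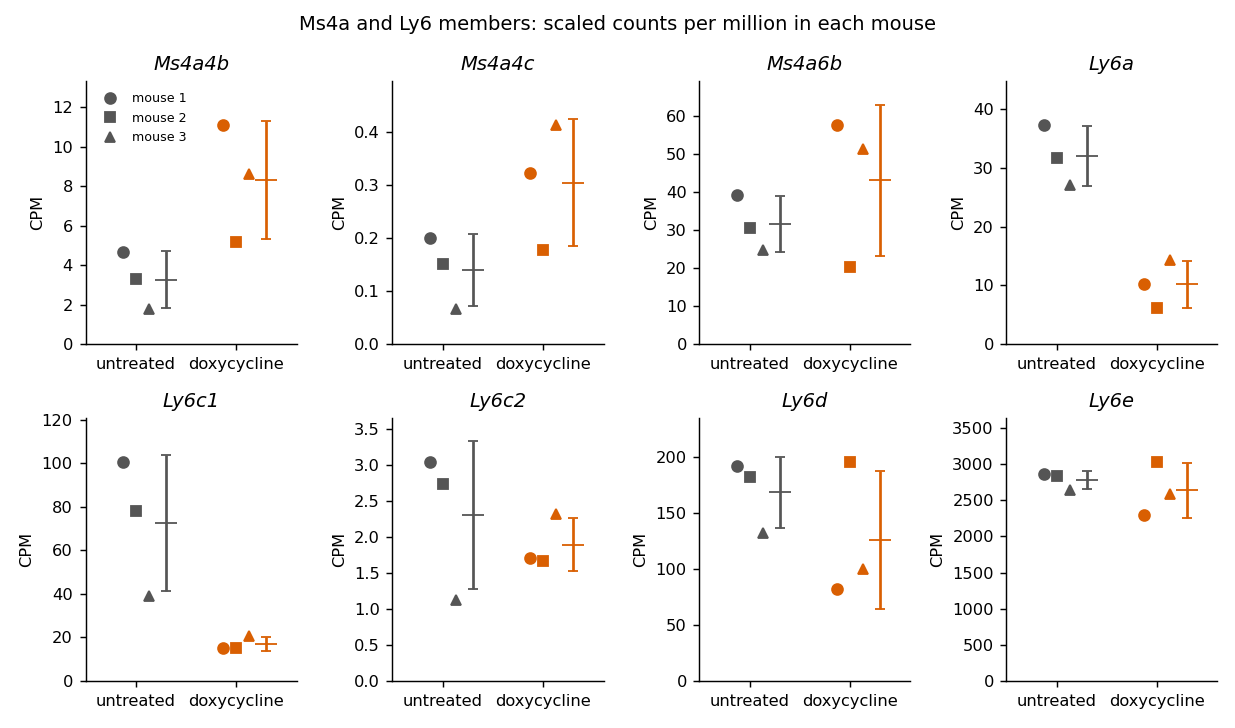
Level of each member in CPM (vertical axis, from 0, its own range per gene) in the 3 untreated (grey) and 3 Dox mice (orange). Symbols mark the mouse number within its group, which does not pair mice across groups, and bars show mean ± SD. Ly6a and Ly6c1 are lower in every Dox mouse, Ms4a4b is higher in every Dox mouse, and the groups overlap for the other 5 genes.

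Ly6c1 encodes a Ly6C protein found on T-cell subsets and endothelium. It was at 100.8, 78.1 and 38.8 CPM in untreated mice 1 to 3 and at 14.99, 15.01 and 20.6 CPM in Dox mice 1 to 3. Untreated mouse 3 was the lowest of its group, yet still 1.89 times the highest Dox mouse, so the groups did not overlap. The mean went from 72.6 ± 31.4 to 16.9 ± 3.21 CPM (SD, n = 3 each), a 4.30-fold fall (log2 fold change -2.10 ± 0.38 SE, edgeR adjusted p = 0.0073). It was the largest change among the 7 members tested.

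Ly6a encodes Sca-1, which marks haematopoietic progenitors and activated T cells. Its level was 37.3, 31.7 and 27.1 CPM in the untreated mice and 10.2, 6.24 and 14.3 CPM in the Dox mice. Every untreated mouse was above every Dox mouse, the lowest untreated mouse being at 1.90 times the highest Dox mouse. The fall from 32.0 ± 5.13 to 10.2 ± 4.01 CPM was 3.13-fold (log2 fold change -1.65 ± 0.30 SE, edgeR adjusted p = 0.0051). The 50-base windows Ly6a shares with Ly6c1 mean that the 2 falls may rest in part on shared reads, which was not tested.

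Ly6c2, the other Ly6C copy, did not pass. It held 3.05, 2.74 and 1.13 CPM in untreated mice 1 to 3, which is 91, 91 and 34 counts, and 1.71, 1.67 and 2.32 CPM in Dox mice 1 to 3. Untreated mouse 3 was the lowest of all 6 mice for Ly6c2, and the Dox mice lay inside the untreated range. The log2 fold change was -0.28 ± 0.36 SE (edgeR adjusted p = 0.54), with a 95% interval from -1.27 to 0.71.

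Per mouse, the ratio of Ly6c1 to Ly6c2 CPM separated the groups. It was 33.0, 28.5 and 34.3 in the untreated mice and 8.79, 9.01 and 8.85 in the Dox mice. Ly6c1 varied 2.60-fold and Ly6c2 2.70-fold among untreated mice, more than the ratio did. Its mean was 31.9 ± 3.07 untreated and 8.89 ± 0.114 with Dox (SD, n = 3 each). The ratio was chosen after the values were seen, and the exact two-sided permutation test gave p = 0.1, the smallest that 3 against 3 mice allow. Ly6c1 and Ly6c2 summed fell as well (-1.996 on the log2 scale, edgeR adjusted p = 0.0088). Ly6c1 made up most of this sum in every mouse, so the sum largely repeats the Ly6c1 result. It does not change with the division of counted reads between these copies. Reads left uncounted or counted for Ly6a are not covered by the sum, and their part was not tested.

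**Figure D2:**
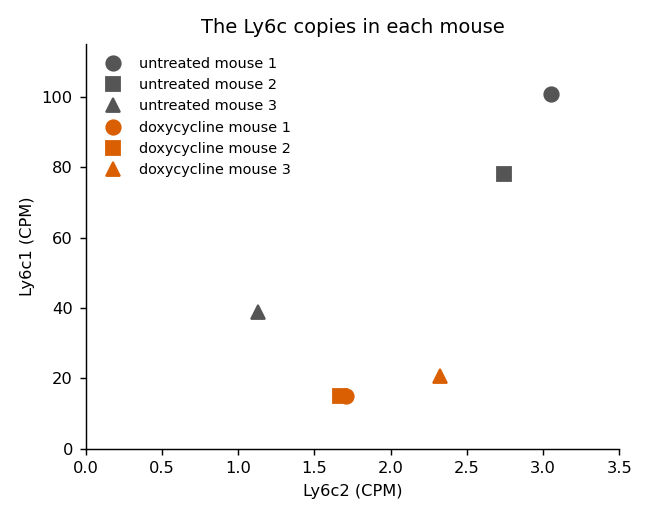
Ly6c1 (vertical axis, CPM) against Ly6c2 (horizontal axis, CPM) in each of the 6 mice, both axes from 0. Untreated mice (grey) lie at ratios of 28.5 to 34.3, and Dox mice (orange) at 8.79 to 9.01, closer together than the low Ly6c2 counts can resolve.

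Ly6d encodes a Ly6 protein used to mark lymphoid progenitors with B-cell potential. It was at 191.5, 181.7 and 132.3 CPM in the untreated mice and at 81.9, 195.7 and 99.8 CPM in the Dox mice. Dox mouse 2 was the highest of all 6 mice, while the other Dox mice were below all untreated mice. The log2 fold change was -0.42 ± 0.37 SE (edgeR adjusted p = 0.39; 95% interval -1.45 to 0.61). Without Dox mouse 2 it was -0.88 and passed (edgeR adjusted p = 0.012). The high value stood in both sequencing runs of that mouse, with 4510 and 4305 counts.

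Ly6e, a widely expressed Ly6 gene known as interferon-inducible, had the highest level per kilobase of the 8. Its level was 2858, 2842 and 2643 CPM untreated and 2292, 3036 and 2583 CPM with Dox. Dox mice were both the lowest and the highest, so the groups overlapped. The log2 fold change was -0.08 ± 0.10 SE (edgeR adjusted p = 0.56), and its 95% interval of -0.36 to 0.21 was the narrowest among the 7 tested.

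Ms4a4b encodes a membrane protein of naive and Th1 T cells that can associate with the costimulatory receptor GITR. It was at 4.69, 3.31 and 1.796 CPM in the untreated mice and 11.1, 5.20 and 8.65 CPM in the Dox mice. Each Dox mouse was above each untreated mouse, but the lowest Dox mouse, mouse 2, was only 1.11 times the highest untreated one. The mean went from 3.27 ± 1.45 to 8.32 ± 2.97 CPM (SD, n = 3 each), a 2.54-fold rise (log2 fold change 1.34 ± 0.40 SE, edgeR adjusted p = 0.027). The call was lost without untreated mouse 2 (adjusted p = 0.092), Dox mouse 1 (0.078) or Dox mouse 3 (0.062), and with no filter on low counts (0.0503). Fewer genes passed over the whole table as well when 1 mouse was left out, 4869 to 6281 against 6571.

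Ms4a4c, its neighbour and closest relative here, had 6, 5 and 2 counts in the untreated mice and 11, 8 and 18 in the Dox mice. Untreated mouse 3 was below the 3 counts taken as the detection floor. Tested without the filter, its log2 fold change was 1.09 ± 0.56 SE and did not pass (edgeR adjusted p = 0.15 over 18477 genes). Ms4a4b and Ms4a4c summed gave 1.34 (edgeR adjusted p = 0.029). Ms4a4b made up 95.4 to 97.2% of this sum by mouse, so the sum largely repeats the Ms4a4b result.

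Ms4a6b, which belongs to the Ms4a6 branch of the family and is also found in T cells, was at 39.3, 30.5 and 24.9 CPM untreated and 57.6, 20.4 and 51.2 CPM with Dox. Dox mice 1 and 3 were above all untreated mice, and Dox mouse 2 was below them. The log2 fold change of 0.45 ± 0.43 SE did not pass (edgeR adjusted p = 0.43; 95% interval -0.74 to 1.63). Without Dox mouse 2 it was 0.80 and passed (adjusted p = 0.013).

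Several members varied between mice of one group more than most genes did. Among the 9486 tested genes with at least 5 CPM in both groups, the median coefficient of variation (SD over mean) was 5.91% untreated and 7.86% with Dox, and the 90th percentiles were 13.98% and 17.6%. Of the 5 members at that level, 4 were above the 90th percentile in each group. In the untreated group these were Ly6c1 (43.2%), Ms4a6b (23.1%), Ly6d (18.8%) and Ly6a (16.03%). In the Dox group they were Ly6d (48.7%), Ms4a6b (46.2%), Ly6a (39.2%) and Ly6c1 (19.04%). Ly6e stayed under both, at 4.31% and 14.2%. Untreated mouse 3 was the lowest untreated mouse for all 8 members. The share of all genes tested for which it was lowest is not given here, so this cannot be called particular to the members. Members that share sequence are also not independent of each other. Dox mouse 2 was the lowest Dox mouse for Ms4a4b, Ms4a4c, Ms4a6b, Ly6a and Ly6c2 and the highest for Ly6d and Ly6e.

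Levels of different genes were compared per kilobase of the deposited gene length. In the untreated mice the order was Ly6e (1209 ± 52.1 CPM per kilobase, SD, n = 3), Ly6d (244 ± 46.0), Ly6c1 (44.1 ± 19.04), Ly6a (38.7 ± 6.20), Ms4a6b (18.7 ± 4.32), Ly6c2 (2.88 ± 1.29), Ms4a4b (2.60 ± 1.15) and Ms4a4c (0.0809 ± 0.0395). Ly6c1 and Ly6a overlapped between mice, as did Ly6c2 and Ms4a4b, and the other neighbours in this order did not. Ly6e ranked 26th of the 13134 genes tested and Ly6d ranked 235th.

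With Dox the order of the same per-kilobase levels was Ly6e (1146 ± 163), Ly6d (182 ± 88.6), Ms4a6b (25.5 ± 11.8), Ly6a (12.3 ± 4.84), Ly6c1 (10.2 ± 1.95), Ms4a4b (6.61 ± 2.36), Ly6c2 (2.37 ± 0.460) and Ms4a4c (0.177 ± 0.0692). Ms4a6b overlapped with Ly6a, and Ly6a with Ly6c1. Ms4a4b was above Ly6c2 in all Dox mice, where the untreated mice had overlapped. Ly6c1 moved from rank 2131 to rank 6653 and Ly6a from rank 2454 to rank 6120.

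**Figure D3:**
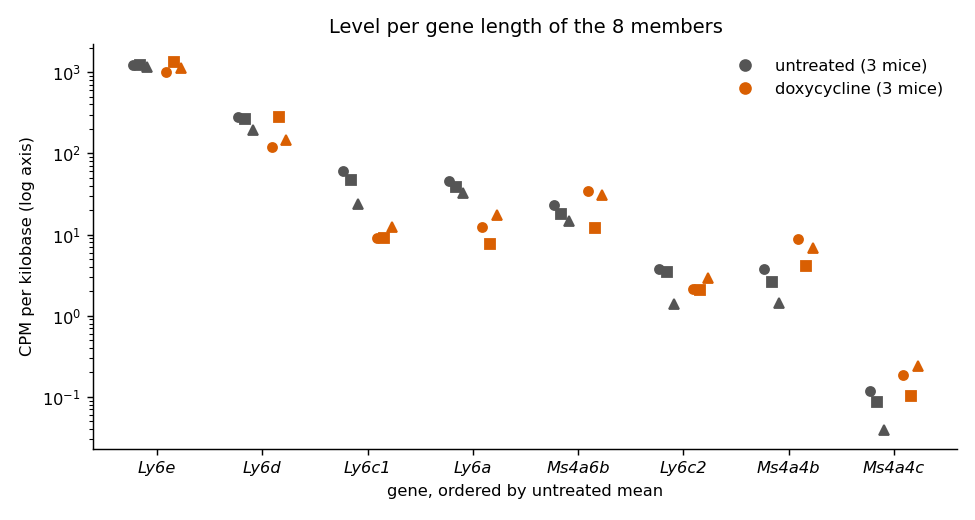
Level per kilobase of gene length (log axis, CPM per kilobase) of the 8 members in each untreated (grey) and Dox (orange) mouse, ordered by the untreated mean. The levels span from about 0.0386 for Ms4a4c to 1320 for Ly6e, and Ly6c1 and Ly6a drop below Ms4a6b in the Dox means.

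The rest of both families was examined for comparison. Of 15 other Ms4a genes, 6 had no count in any mouse and 3 were tested (median log2 fold change 0.81). Of these 3, 2 rose and 0 fell with edgeR, DESeq2 and limma-voom alike, and 0 fell at an unadjusted edgeR p under 0.05. Over all genes tested, 24.8% rose and 25.2% fell. Ms4a7, a macrophage gene, went from 0.168, 0.151 and 0.0665 CPM to 0.353, 0.844 and 0.759 CPM (log2 fold change 2.33 ± 0.49 SE, edgeR adjusted p = 0.0050). That is only 5, 5 and 2 counts untreated and 12, 38 and 33 counts with Dox. Untreated mouse 3 was below the floor of 3 counts. Ms4a6c, also found in myeloid cells, went from 2.21, 1.75 and 1.56 to 3.62, 2.71 and 3.40 CPM (0.81 ± 0.22 SE, edgeR adjusted p = 0.015). For both, all Dox mice were above all untreated mice. The call on Ms4a6c was lost without untreated mouse 2 (adjusted p = 0.059) or Dox mouse 1 (0.054). In either run alone 1 of these genes rose, Ms4a6c (edgeR adjusted p = 0.027 and 0.018), so the call on Ms4a7 was lost there. Ms4a6d was at 1.64, 0.663 and 0.333 CPM untreated and 1.06, 0.666 and 0.828 CPM with Dox and did not pass (adjusted p = 0.94). Ms4a1, which encodes CD20 of B cells, had 1 count in all 6 mice together.

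Markers of monocytes, macrophages and granulocytes summed to 26.6 to 47.1 CPM in untreated mice and 71.8 to 94.0 CPM with Dox, and 5 of the 11 tested rose while 3 fell. Itgam, an integrin chain, held the largest part and went from 9.09, 10.7 and 9.78 to 46.0, 48.3 and 37.8 CPM. Mpo, a neutrophil granule gene, went the other way, from 4.39, 6.48 and 0.965 to 0.764, 0.955 and 0.253 CPM. Untreated mouse 3 was the lowest untreated mouse for Mpo, as it was for the 8 members. Whether RNA of such cells takes part in the values of Ms4a7, Ms4a6c or the Ly6 members was not tested. Erythroid markers summed to 5.84 to 45.3 CPM untreated and 64.0 to 80.5 CPM with Dox, and 3 of the 7 tested rose. Untreated mouse 3, the library with INJ in its name, stood apart from its group here. Hba-a2, a haemoglobin gene, was at 2.85, 1.33 and 18.1 CPM untreated and 26.9, 26.5 and 24.3 CPM with Dox. The part of erythroid RNA in the members' values was not tested. The natural killer cell markers stayed at 0.155 to 0.704 CPM in sum, with Klra8 at 0 in every mouse. Dendritic cell markers summed to 0.865 to 1.30 and 2.29 to 2.84 CPM, and platelet markers to 0.532 to 0.637 and 0.466 to 0.736 CPM.

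Endothelium and stroma can also carry Ly6a and Ly6c1. Their 7 markers summed to 342 to 413 CPM untreated and 359 to 366 CPM with Dox, and of 4 tested 3 rose and 1 fell. Pdgfrb, a receptor of stromal cells, went down with Ly6a and Ly6c1, from 131, 169 and 109 to 12.9, 23.5 and 17.4 CPM, while Pecam1, carried by endothelium and leukocytes, went up from 146, 139 and 116 to 208, 211.0 and 199 CPM. The collagen gene Col1a2 also rose, from 111, 100.7 and 112 to 133, 117 and 141 CPM, as did Col1a1, from 4.39, 3.82 and 4.92 to 8.67, 8.01 and 8.97 CPM. The endothelial genes Cdh5 and Kdr stayed at or under 0.369 CPM in every mouse. A further collagen gene, Col3a1, stayed at or under 0.0301 CPM in every mouse. The part of stromal cells in the Ly6 values was not tested.

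Of the 36 other genes of the Ly6 and urokinase-receptor (uPAR) fold listed, 35 were in the table and 9 were tested. There, 6 rose, 1 fell and 2 did not pass, with a median log2 fold change of 0.95, beside 50% of all genes tested that passed. The rises were in Plaur, the urokinase receptor (1.89 ± 0.36 SE), Lypd6b (1.66 ± 0.30 SE), Gml (1.62 ± 0.36 SE), Gml2 (1.31 ± 0.35 SE), Ly6g5b (0.95 ± 0.29 SE) and Lynx1, a modulator of nicotinic receptors (0.84 ± 0.23 SE). Plaur went from 0.369, 0.572 and 0.565 to 1.12, 2.35 and 2.12 CPM, and Lypd6b from 1.71, 1.596 and 0.931 to 5.91, 4.24 and 3.29 CPM, so all Dox mice were above all untreated mice for both. Lynx1 was at 16.9, 19.3 and 18.7 CPM untreated and 26.3, 45.8 and 26.1 CPM with Dox. The call on Lynx1 was lost without untreated mouse 1 (adjusted p = 0.071), 2 (0.059) or 3 (0.054). That on Ly6g5b was lost without untreated mouse 1 (0.090) or 2 (0.083) or Dox mouse 1 (0.057) or 3 (0.069), and that on Gml2 without untreated mouse 2 (0.064). Leaving out untreated mouse 2 left 3 that rose, and with DESeq2 Gml2 and Ly6g5b did not pass (adjusted p = 0.13 and 0.055). Gml and Gml2 overlap on the chromosome, so their counts may not be independent. Ly6m fell from 13.3, 13.8 and 11.1 to 6.67, 9.46 and 8.42 CPM (-0.64 ± 0.16 SE, edgeR adjusted p = 0.010). Ly6k, at 222 to 278 untreated and 213 to 220 with Dox, did not pass (-0.22 ± 0.09 SE, adjusted p = 0.063), but did without untreated mouse 3 (-0.31, adjusted p = 0.010). Ly6i, the closest relative of Ly6a by coding sequence among those compared (86.4% identity), stayed at 0.444 to 0.738 CPM in all 6 mice (-0.13 ± 0.33 SE, adjusted p = 0.77).

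**Figure D4:**
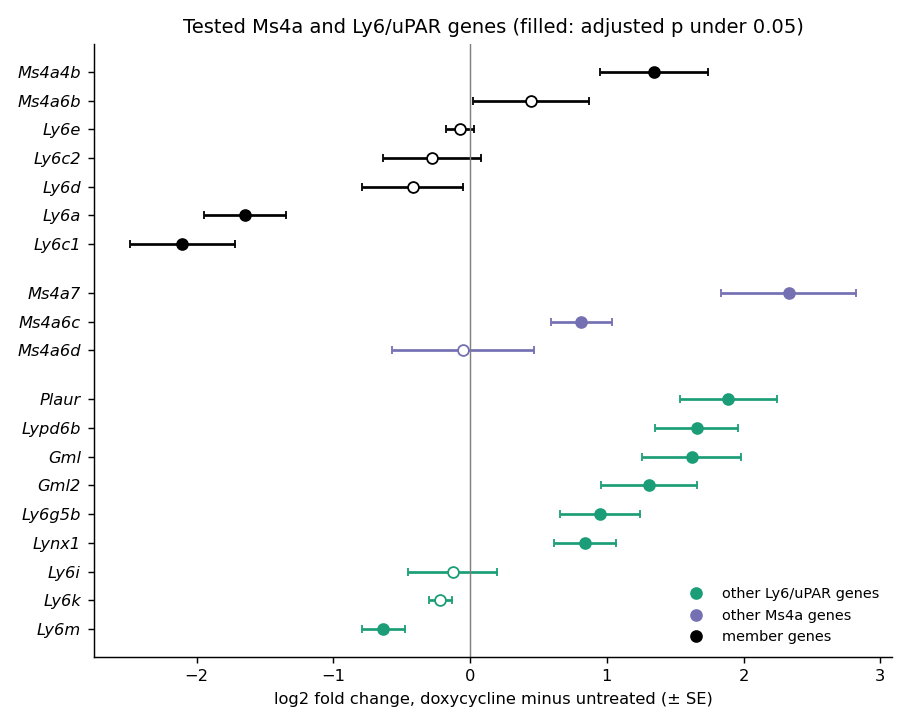
Log2 fold change (horizontal axis, Dox minus untreated, ± SE) of the tested members (black), other Ms4a genes (purple) and other Ly6/uPAR genes (green). Filled points passed an adjusted p of 0.05. Ly6a and Ly6c1 lie furthest to the left, and Ms4a7 (2.33) furthest to the right.

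Genes around the members were examined in chromosome order. The chromosome 15 window ran from 200 kb before the first to 200 kb after the last listed family gene. In it 20 of 37 genes were tested, 4 rose, 4 fell and 12 did not pass, beside 50% of all genes tested that passed. Ly6a and Ly6c1 are adjacent and both fell, Ly6i and Ly6c2 on either side of them did not pass, and Gml and Gml2 further along the cluster rose. Outside the family, Top1mt, the mitochondrial topoisomerase, fell (-0.99 ± 0.17 SE).

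In the chromosome 19 window, 16 of 40 genes were tested, 5 rose, 6 fell and 5 did not pass. Of all genes tested 50% passed. Ms4a7, Ms4a4b and Ms4a6c rose along a run of the cluster in which the untested Ms4a4a and Ms4a4c also lie. At the edge of the window Cd6, which encodes a scavenger-receptor-type surface protein of T cells, rose (1.64 ± 0.07 SE, edgeR adjusted p = 1.6e-05), and Tmem132a fell (-1.50 ± 0.12 SE). Prpf19 (-0.71), Mrpl16 (-0.61), Stx3 (-0.57), Ccdc86 (-0.48) and Tmem109 (-0.41) fell by smaller amounts on the log2 scale, Stx3 with an adjusted p of 0.0494. The call on Stx3 was lost without any 1 mouse other than untreated mouse 2 (adjusted p 0.051 to 0.18). BE692007, which overlaps Ms4a6c, was at 0.93 ± 0.37 SE and did not pass.

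**Figure D5:**
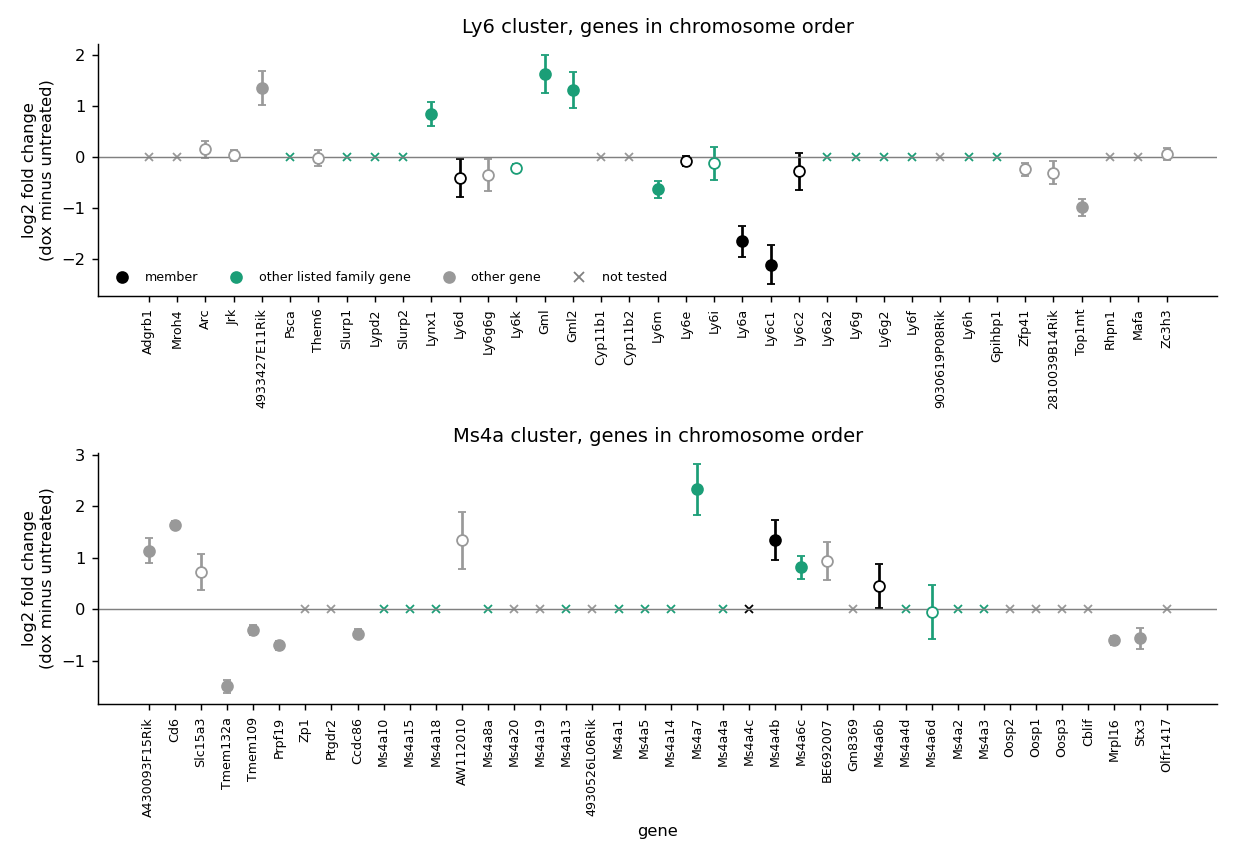
Log2 fold change (vertical axis, Dox minus untreated, ± SE) of genes in chromosome order (horizontal axis, not to scale) in the Ly6 window (upper panel, 37 genes) and the Ms4a window (lower panel, 40 genes). Black marks members, green other family genes and grey other genes, filled points passed an adjusted p of 0.05, and crosses on the zero line mark genes that were not tested.

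Promoter sequence was available from RefSeq (GRCm38.p6) for 5 of the 8 members, as 7 promoters from 250 bases before to 50 bases after the start. Ly6a, Ly6d and Ly6e had no entry. The 250 bases before the start are shown for the 2 pairs of copies, since Ikaros is the factor that returns with Dox and GGGAA is the core of its motif. Capitals mark matches to GGGAA on either strand (TTCCC where it lies on the other strand), or to the longer TGGGAA where it is present.
Ms4a4b (chr19:11443308-11443557, plus strand): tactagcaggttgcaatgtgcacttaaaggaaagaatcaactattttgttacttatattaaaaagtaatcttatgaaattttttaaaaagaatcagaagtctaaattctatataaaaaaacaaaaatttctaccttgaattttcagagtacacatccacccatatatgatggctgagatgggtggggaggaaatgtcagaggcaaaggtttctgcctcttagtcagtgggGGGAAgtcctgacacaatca
Ms4a4c (chr19:11407411-11407660, plus strand): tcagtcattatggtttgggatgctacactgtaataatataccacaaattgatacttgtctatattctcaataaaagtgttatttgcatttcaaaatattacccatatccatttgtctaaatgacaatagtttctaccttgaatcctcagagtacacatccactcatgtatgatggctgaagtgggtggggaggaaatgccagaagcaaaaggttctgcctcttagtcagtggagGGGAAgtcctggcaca
Ly6c1, first promoter (chr15:75048838-75049087, minus strand): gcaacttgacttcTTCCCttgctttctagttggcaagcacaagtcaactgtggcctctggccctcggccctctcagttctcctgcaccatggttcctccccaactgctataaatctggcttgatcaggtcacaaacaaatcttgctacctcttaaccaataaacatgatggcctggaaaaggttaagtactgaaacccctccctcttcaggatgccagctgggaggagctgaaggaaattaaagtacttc
Ly6c2, first promoter (chr15:75111972-75112221, minus strand): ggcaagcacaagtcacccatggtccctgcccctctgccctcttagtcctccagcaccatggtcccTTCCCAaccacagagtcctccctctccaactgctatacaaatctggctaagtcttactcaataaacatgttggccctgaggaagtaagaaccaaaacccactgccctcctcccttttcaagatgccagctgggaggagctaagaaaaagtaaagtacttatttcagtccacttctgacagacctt
Over the 300 bases, GGGAA occurred in 6 of the 7 member promoters, all but that of Ms4a6b, and in 62.7% of 32851 promoters of all genes. The 7 belong to 5 genes, and the 2 promoters of Ly6c1 overlap on the chromosome, as do the 2 of Ly6c2. Some bases are thus counted more than once. The longer TGGGAA, which contains GGGAA, occurred in the 2 overlapping promoters of Ly6c2 and in 25.6% of all promoters. Neither the STAT dimer motif TTCNNNGAA (8.3% of all promoters) nor the interferon-stimulated response element (3.44%) had a match in the 7. The promoters of Ms4a4b and Ms4a4c were 73.8% identical and each had GGGAA within 20 bases of the start. Ly6c1 and Ly6c2 have 2 promoters each, and the identity of the 4 pairings between the genes was 62.9% (the first promoters, shown), 52.2%, 49.1% and 39.8%. GGGAA lay 237 bases before the start in the first promoter of Ly6c1 and 185 in that of Ly6c2. In the second promoters it began 82 bases before and 21 after the start for Ly6c1, and 219 before and 38 after for Ly6c2. A match describes the letters only.

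Ly6 proteins depend on the enzymes that build and attach the GPI anchor. Of 27 tested genes of GPI anchor synthesis and attachment, 6 rose, 4 fell and 17 did not pass (median log2 fold change 0.06), beside 50% of all genes tested that passed. Pgap1, which removes the acyl chain from the anchor's inositol, rose 2.79-fold from 3.59, 4.58 and 7.05 to 13.9, 14.3 and 14.2 CPM. Pigm, the first mannosyltransferase, rose 1.73-fold. Pigw, the inositol acyltransferase, fell 1.49-fold, and Gpaa1, a subunit of the transamidase that attaches the anchor, fell 1.28-fold. Leaving out untreated mouse 2 or Dox mouse 2 left 2 genes that fell.

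Among 14 tested genes of other GPI-anchored T-cell surface proteins, 7 rose, 3 fell and 4 did not pass (median 0.49). The share of all genes tested that passed was 50%. Cd52, a short lymphocyte glycopeptide, rose 5.95-fold from 13.1, 8.70 and 18.9 to 89.5, 75.3 and 77.5 CPM. Efna4, an ephrin, rose 2.37-fold and Izumo1r, the folate-receptor-like FR4, rose 2.33-fold. Bst2 (tetherin), an interferon-inducible protein, fell 3.15-fold from 57.1, 56.9 and 42.1 to 15.9, 16.5 and 17.1 CPM, beside 3.13-fold for Ly6a. Both rises and falls were thus counted among genes of GPI-anchored proteins. Leaving out untreated mouse 2 left 4 that rose.

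Interferon receptors, their kinases and their transcription factors rose in 13 of 15 tested genes, and 0 fell with edgeR, DESeq2 or limma-voom (median 0.56). Over all genes tested, 24.8% rose and 25.2% fell. At an unadjusted edgeR p under 0.05, 1 gene (Irf8) was lower. In the same mice the interferon-inducible Ly6e did not pass and Ly6a fell. Irf7 rose 3.09-fold from 8.92, 11.02 and 8.28 to 35.7, 21.9 and 29.8 CPM. Jak2 rose 2.24-fold, Ifngr1, the binding chain of the interferon gamma receptor, 2.15-fold and Tyk2 1.62-fold. Irf1 and Irf8 did not pass (adjusted p = 0.24 and 0.068).

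Genes of naive and memory T cells, among which Ly6C and Sca-1 are used as markers, rose in 10 and fell in 4 of 15 tested (median 0.75). The shares over all genes tested were 24.8% and 25.2%. Cd69, an early activation marker and tissue retention molecule, rose 10.4-fold from 1.71, 2.56 and 2.03 to 29.1, 13.2 and 23.7 CPM. Cd44, the memory and activation marker, rose 8.86-fold from 4.996, 3.64 and 3.53 to 47.3, 37.1 and 23.4 CPM. Foxo1, a factor of naive T-cell homing, rose 4.04-fold. All Dox mice were above all untreated mice for these 3 genes.

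For each of the 6 members with at least 5 CPM in either group, the 2 genes with the most similar profile over the 6 mice were sought among 9615 genes of that level. Likeness was the root-mean-square difference in centred log2 CPM. For Ly6a they were Pvt1, a long noncoding RNA gene next to Myc (0.03), and Aif1l (0.05). Pvt1 went from 12.9, 10.9 and 9.11 to 3.38, 2.13 and 4.62 CPM, with the same order of mice as Ly6a. For Ly6c1 they were Rabl2 (0.18) and Trim13 (0.18), both of which fell (log2 fold changes of -1.99 and -2.27). For Ms4a4b they were the lectin gene Clec2d (0.23) and Samd9l (0.28), both of which rose.

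The profiles closest to Ms4a6b and Ly6d, being chosen for likeness, had Dox mouse 2 apart from its group too. Art2b, which encodes a GPI-anchored ADP-ribosyltransferase of T cells, was nearest to Ms4a6b (0.09), at 8.55, 6.69 and 5.62 CPM untreated and 13.9, 5.31 and 11.7 CPM with Dox. Camk2d followed (0.21). For Ly6d they were Xrcc6, which encodes the Ku70 end-joining protein (0.15), and Il15ra (0.15). Xrcc6 was at 1716, 1632 and 1255 CPM untreated and 827, 1414 and 864 CPM with Dox. For Ly6e they were Gtf2ird2 (0.04) and Lias (0.04). With only 6 mice in 2 groups, many genes can have similar profiles. All these genes were picked by likeness over the same mice, so the directions and deviations they share with a member follow from the choice.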

How the data were processed

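Raw counts per Entrez gene with a gene length were deposited for 6 mice in 2 runs each. The submitters' processing notes name CASAVA 1.8.1, featureCounts and mm10. For the aligner, annotation, strand setting and reads with several matches, the entry is: not given in the sources used here. Counts of both runs were summed per mouse. Of 27179 identifiers, 93.1% matched a symbol (RefSeq or GENCODE). The comparison used edgeR 4.0.16 in R 4.3.3, with filterByExpr, TMM factors on totals of the 13134 genes kept, robust dispersions, a quasi-likelihood F test without block and Benjamini-Hochberg adjustment at 0.05. SE is the absolute log2 fold change over the square root of F, and intervals take 4 residual degrees of freedom. The detection floor of 3 counts was 0.0666 to 0.101 CPM by mouse and covers counting error only. P-values measure the spread between these mice, which share 1 leukemia. The test was checked on simulated counts.

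Alternatives were other size factors, other filters, DESeq2 1.42.0, limma-voom (limma 3.58.1), a fit that is not robust, single runs, the replicate number as a block, leaving out mice, and summed copies. Members and gene lists were chosen with earlier results of these data known. Named genes were the members, Ikzf1, all tested family genes, up to 4 genes with the smallest p of each other list, genes of the 2 chromosome windows, and the 2 most similar profiles per member. A gene that this rule takes is not reported here. Ms4a1, Ms4a3, Ms4a4a, Irf1, Irf8, Cd59a, Ly6a2 and the single cell type markers were named after their values were seen. Transcript windows and coding sequences came from GENCODE M21.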

Additional observations from a re-analysis of the deposited data

How the results depend on the processing

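Ly6a and Ly6c1 kept direction and call under all 18 and 19 alternatives run, with log2 fold changes of -1.96 to -1.37 and -2.41 to -1.80. Ms4a4b lost its call with no filter (1.34) and, with 1 mouse left out, ranged from 1.05 to 1.69. Leaving out 1 mouse or both untreated mouse 3 and Dox mouse 2, Ms4a6b ranged from 0.18 to 0.80, Ly6d from -1.03 to -0.19, and Ly6e from -0.22 to 0.016, where Ly6e reversed without Dox mouse 1. Without both mice, Ms4a6b (0.65) and Ly6d (-1.03) passed, so 2 members rose. These mice are the ones that stood apart in the members' values above. Leaving them out favours a pass, so these passes, and those without Dox mouse 2 alone, give no independent support. The Ly6c2 value of -1.996 from summed copies is mostly Ly6c1. With no filter 0 members rose. Leaving out 1 mouse, 0 to 2 members rose, as did 1 to 3 other Ms4a genes and 3 to 6 other Ly6/uPAR genes, while 1 to 2 of the latter list fell. Likewise 2 to 4 GPI synthesis genes fell and 4 to 8 other GPI-anchored genes rose. Of other Ms4a genes, 1 rose with a filter of over 1 CPM and in either run alone, where fewer genes or reads were tested, and 1 fell with no filter. Of other Ly6/uPAR genes 2 fell with DESeq2 and without both mice. In run 1 alone 1 interferon gene and 2 naive and memory genes fell; the cause was not tested.

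The direction of some genes that did not pass depended on the setting. Ms4a6d was at 0.20 with limma-voom, 0.13 with the block, 0.18 in run 1, and -0.44 to 0.74 without 1 mouse or both. Likewise Ly6i ranged from -0.39 to 0.033, Gtf2ird2 from -0.24 to 0.038, Lias from -0.17 to 0.0022, Jrk from -0.046 to 0.10, Them6 from -0.18 to 0.10 and Zc3h3 from -0.0065 to 0.092. Jrk was at -0.028 in run 1 and Them6 at 0.0027 in run 2.

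Mice with the same number in both groups did not deviate together (correlations 0.16, -0.012 and -0.10), and untreated mouse 3 correlated best with Dox mouse 2 (0.17). With the replicate number as a block 6259 genes passed, against 6571, and the members' calls did not change (Ly6a -1.71, Ly6c1 -2.02, Ms4a4b 1.36). Depth limits Ms4a4c and most other family genes, and no outlier test was run on the groups of 3 mice.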

Other observations

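Some family genes with too few counts for the main test differed between the groups when no filter was used. Ms4a4a, a gene of macrophages, had 1, 1 and 0 counts in the untreated mice and 18, 29 and 5 counts in the Dox mice (edgeR adjusted p = 0.0032 over 18477 genes). Ms4a3, a gene of granulocyte progenitors, went the other way, with 10, 8 and 2 counts untreated and 2, 0 and 1 with Dox (edgeR adjusted p = 0.021). Ms4a3 and Mpo share that direction, with untreated mouse 3 the lowest untreated mouse for both. Ly6a2, the neighbour of Ly6c2, had 7, 9 and 1 counts untreated and 2, 1 and 3 with Dox, and Cd59a, an inhibitor of complement, had 0, 0 and 1 untreated and 5, 9 and 4 with Dox. These counts are close to the floor of 3, and the part of other cells in them was not tested.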
